A study of Mus musculus with 2 samples.

Results

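Melanin is the pigment of the eye, and the 10 genes described here encode its enzymes, the proteins and transporters of the melanosome, and the transcription factor of pigment cells. They are Tyr, Tyrp1, Dct, Pmel, Mlana, Oca2, Slc45a2, Slc24a5, Gpr143 and Mitf, chosen by name as 10 of the 32286 features counted in both libraries, and each symbol matched 1 feature. They took 343588 UMIs (unique molecular identifiers, counted transcripts) or 0.280% of all UMIs in the kept cells of the GFP-labelled library, and 381599 UMIs or 0.290% in the sponge-labelled library. The cells were profiled with 10x Genomics 3′ RNA kits from optic cup dissociated with papain from mice that lack Abca4, a model of Stargardt macular degeneration. The group labelled GFP is 1 library from eyes given AAV2.8-GFP, and the group labelled sponge is 1 library from eyes given AAV2.8-Sponge.mir181, a transcript that binds miR-181a and miR-181b. Per the series the vectors went under the retina of opposite eyes at 2 months of age with collection 4 months later, whereas the labels give 4 months as the age of both groups. All mice in both groups lack Abca4, so no group with intact Abca4 enters, and the sources used here give neither the number of mice or eyes behind each library nor their coat colour.

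The enzymes tyrosinase, TYRP1 and dopachrome tautomerase convert tyrosine to melanin inside the melanosome, a lysosome-related organelle laid out on fibrils of PMEL. Transporters in its membrane set its ions and pH, and MITF switches on most of these genes. Pigment in the eye is made by lineages of different origin: melanocytes of the choroid and iris arise from the neural crest, whereas the retinal pigment epithelium (RPE) and the pigmented epithelia of the ciliary body and iris arise from the optic neuroepithelium. The RPE lays down most of its pigment early in life and afterwards serves the photoreceptors.

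Tyrosinase, the rate-limiting enzyme, is encoded by Tyr (ENSMUSG00000004651) on chromosome 7, 87424771 to 87493512, minus strand, in mm10. Tyrp1 (ENSMUSG00000005994), which in the mouse oxidises a late intermediate, lies on chromosome 4, 80834123 to 80851719, plus strand. Dct (ENSMUSG00000022129), dopachrome tautomerase, lies on chromosome 14, 118012790 to 118052244, minus strand. Pmel (ENSMUSG00000025359) lies on chromosome 10, 128704195 to 128720238, and Mlana (ENSMUSG00000024806), whose human protein binds PMEL and aids its maturation, on chromosome 19, 29697824 to 29708634, both on the plus strand. Oca2 (ENSMUSG00000030450), a melanosomal membrane transporter whose loss causes albinism, lies on chromosome 7, 56239760 to 56536518, plus strand. Slc45a2 (ENSMUSG00000022243) lies on chromosome 15, 11000721 to 11029233, and Slc24a5 (ENSMUSG00000035183), a cation exchanger, on chromosome 2, 125068124 to 125088677, both on the plus strand. Gpr143 (ENSMUSG00000025333), the receptor lost in ocular albinism, lies on chromosome X, 152781921 to 152808646, and Mitf (ENSMUSG00000035158) on chromosome 6, 97807052 to 98021349, both on the plus strand. Counted genes on the opposite strand overlap 4 of the 10: Myef2 covers 4050 bases of Slc24a5, 4930435M08Rik 1891 bases of Dct, Gm44506 965 bases of Oca2, and Cdk2 and Dgka 837 and 105 bases of Pmel. The sources used here do not say whether counting used strand, so levels of these genes, and of Slc24a5 in particular, carry that uncertainty.

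The promoters are shown because the genes varied together across clusters of cells. RefSeq (GRCm38.p6) gave a promoter window, from 250 bases before to 50 bases after the start, for 6 of the 10 genes (Tyr, Tyrp1, Dct, Oca2, Slc24a5 and Mitf). The M-box, the letters TCATGTG through which MITF is known to act, was searched on both strands and found in 4 of these 6, against 4.31% of 27025 genes in the same table. A search for the cyclic AMP response element TGACGTCA, which shares no position with the M-box matches, found it in 1 of the 6, a promoter of Mitf, against 2.03% of genes. The 30-base windows read 5′ to 3′ on the strand of the gene, with the match in capitals, and a match is a description of letters only.
Tyr, chr7:87493516-87493545, minus strand: gaaaaagttagTCATGTGctttgcagaaga
Tyrp1, chr4:80834155-80834184, plus strand: tggggagggagTCATGTGctgcctagtagt
Dct, chr14:118052379-118052408, minus strand: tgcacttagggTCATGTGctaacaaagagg
Dct, chr14:118052460-118052489, minus strand, match on the opposite strand: cttggctgggaCACATGAgcccaataaaga
Slc24a5, chr2:125068103-125068132, plus strand, match on the opposite strand: aggagactgctCACATGAttcagcataagt
Mitf, chr6:97991619-97991648, plus strand: gaaaaaaagcaTGACGTCAagccagcaggg

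The microRNAs that the sponge is built against share a seed, bases 2 to 8, printed in capitals, and are shown with the sites that the seed pairs with (TGAATGT on the transcript). The mature sequences are from RefSeq (GRCm38.p6).
miR-181a-5p: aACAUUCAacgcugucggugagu
miR-181b-5p: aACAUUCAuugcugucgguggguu
In GENCODE M21 annotation of mm10, TGAATGT occurred in a 3′ UTR of 3 of the 10 genes, Tyr, Slc45a2 and Mitf, against 18.5% of 21173 genes with a 3′ UTR. Their longest 3′ UTRs were 4278, 1294 and 3174 bases, so 2 of the 3 are the longest of the 10. The match lay in 1 of 6 Mitf transcripts with a 3′ UTR, and in the only such transcript of Tyr and of Slc45a2. Each site is given with 30 bases of context and the match in capitals.
Tyr, chr7:87428173-87428202, minus strand, 8mer: aaaatttgctgTGAATGTaaatttttactg
Tyr, chr7:87428780-87428809, minus strand, 7mer-m8: gctggtttttaTGAATGTgtcttaattatt
Slc45a2, chr15:11029050-11029079, plus strand, 7mer-m8: tcagggctcaaTGAATGTcatggtcattgc
Mitf, chr6:98018991-98019020, plus strand, 7mer-m8: tgaaatggaaaTGAATGTcctctctgagga

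The GFP-labelled library held 39461 barcodes and 123040365 UMIs, of which 39285 barcodes were kept at a median of 2415 UMIs, and the sponge-labelled library held 23267 barcodes and 132067896 UMIs, of which 23200 were kept at a median of 2980.5. They shared 290 barcodes, 0.735% and 1.25% of each. The added eGFP feature was counted mainly in the sponge-labelled library: in RPE-like cells it stood at 1.24 CPM (counts per 1000000 UMIs of the class; 95% interval 0.566 to 2.35) in the GFP-labelled library and at 669 CPM (649.7 to 688) in the sponge-labelled library, in 7 of 974 and 144 of 470 cells. The sources used here do not say whether the sponge vector carries eGFP or which GFP sequence the control vector carries, so a sponge vector with eGFP and crossed labels cannot be told apart. The libraries are therefore named by their labels throughout. With 1 library per group no difference has a replicate check. All intervals are 95% intervals, and they hold counting error alone.

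Cells were clustered without these 10 genes, a list of melanosome genes and eGFP, and clusters were named from markers that hold none of the 10. Of 29 clusters, 1 (cluster 7) was melanocyte-like, with 1793 cells labelled GFP and 413 labelled sponge. In it 9 of 10 melanocyte markers stood at least 2-fold over the median cluster, among them Sox10 at 103 and 143 CPM and Ednrb at 533 and 759 CPM. Another (cluster 14) was RPE-like, with 974 and 470 cells and 7 of 8 RPE markers raised, Rpe65 at 4039 and 5508 CPM. A large unnamed cluster (cluster 6) held 1568 and 1123 cells and was led by Gpnmb, Grem1, Acta2 and Tagln. It scored for pericytes and smooth muscle and, nearly as high, for ciliary and iris epithelium, of whose 10 markers 7 were raised in either library, so it is called the Gpnmb and Grem1 cluster here. It was taken up as the unnamed cluster with the highest summed level of the 10 genes, after its values were seen. Rod-like cells (cluster 1, 3798 and 5648 cells, 9 of 9 rod markers raised though none among its 10 leading genes) serve as the reference for free RNA, since rods make no melanin.

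**Figure D1:**
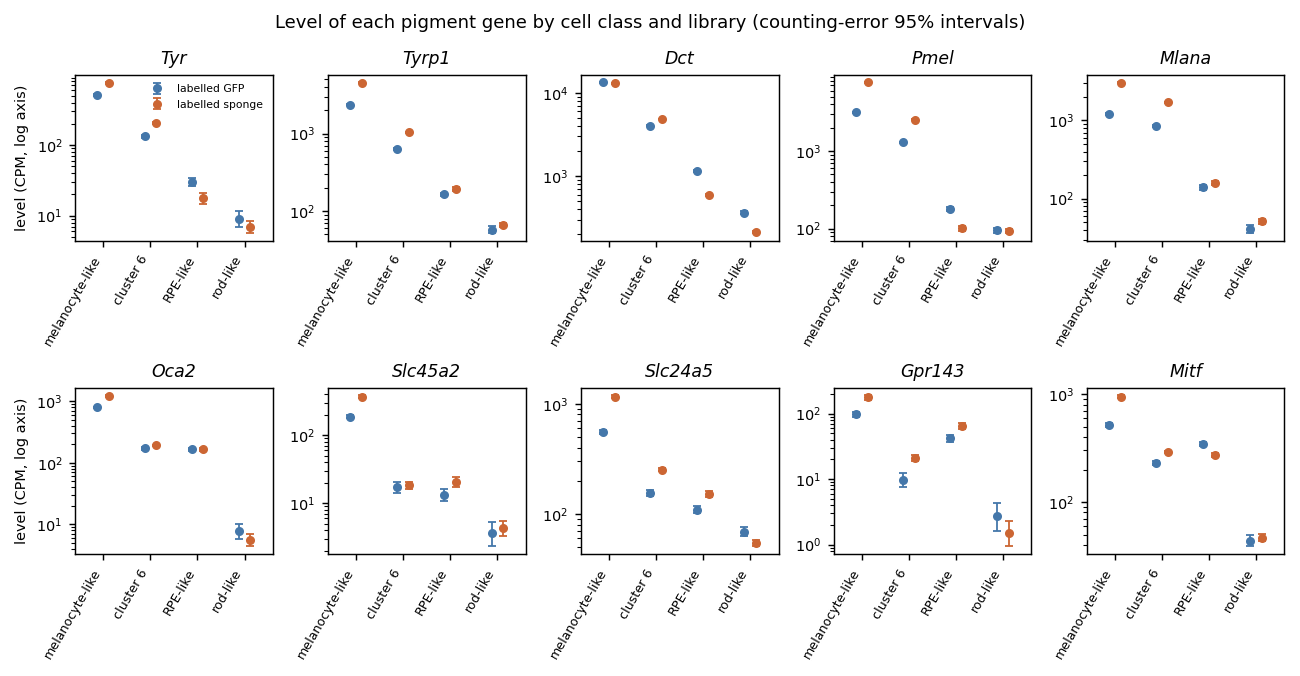
Level of each of the 10 genes (CPM, log axis) in melanocyte-like cells, the Gpnmb and Grem1 cluster (cluster 6), RPE-like cells and rod-like cells. Points are the value of 1 library each, blue for the GFP-labelled library and orange for the sponge-labelled library, with 95% intervals for counting error. Every gene is highest in melanocyte-like cells, and Pmel of RPE-like cells sits near its rod-like level.

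The melanocyte-like cells were the highest of the clusters for the summed 10 genes, at 22782 CPM (22665 to 22899) in the GFP-labelled library and 32861 CPM (32685 to 33038) in the sponge-labelled library, or 2.28% and 3.29% of all their UMIs. The Gpnmb and Grem1 cluster followed at 7492 and 11121 CPM. For RPE-like cells the sum was 2342 CPM (2307 to 2378) in the first and 1749 CPM (1718 to 1779.9) in the second, and for rod-like cells 693 and 544 CPM. Melanocyte-like over RPE-like cells, 9 of the 10 genes were at least 2-fold higher in the GFP-labelled library, where 9.55% of 15200 measured genes were, and 10 of 10 in the sponge-labelled library, where 20.7% of 13945 were. None of the 10 was at least 2-fold lower, where 7.91% and 10.6% of measured genes were. The median log2 ratio of the 10 was 3.33 and 4.20, against 0.20 and 0.29 over all measured genes.

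The enzyme genes showed wide gaps. Tyr stood at 514 CPM (496 to 532) in melanocyte-like and 29.8 CPM (26.0 to 34.1) in RPE-like cells of the GFP-labelled library, and at 753 CPM (727 to 780.3) and 17.8 CPM (14.8 to 21.2) in the sponge-labelled library. Its RPE-like level was 5.81% and 2.36% of the melanocyte-like one. Tyrp1 stood at 2341 and 164 CPM in the GFP-labelled library and at 4551 and 192 CPM in the sponge-labelled library. Dct reached 13417 CPM (13327 to 13506) against 1157 CPM (1132 to 1182), and 13014 CPM (12903 to 13126) and 599 CPM (581 to 617). Rod-like cells carried Dct at 364 CPM (349.8 to 379) and 213 CPM (206 to 221), and its RPE-like level was 3.18 and 2.81 times that. Over the clusters with at least 50 cells outside the pigmented ones, the median Dct was 318 and 144 CPM, below the rod-like level. Cone-like cells at 315 and 134 CPM, bipolar-like at 277 and 98.0 CPM and Muller glia-like at 303 and 88.4 CPM were lower. Fibroblast-like cells, at 930.0 and 244 CPM, and endothelial-like cells, at 792 and 416 CPM, were higher than rods. So were microglia and macrophage-like cells, at 797 and 345 CPM. Ocular surface epithelium-like cells, at 863 and 182 CPM, were higher than rods in the GFP-labelled library alone. Pericyte and smooth muscle-like cells, at 356 and 293 CPM, were higher in the sponge-labelled library alone. The RPE-like level was above all of these in its library.

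Pmel, the fibril protein, had the widest gap, shared with Tyr (log2 ratio 4.10) within counting error in the GFP-labelled library. It stood at 3150.2 CPM (3107 to 3194) in melanocyte-like and 178 CPM (168 to 188) in RPE-like cells of the GFP-labelled library, a log2 ratio of 4.14 (4.06 to 4.23). In the sponge-labelled library it stood at 7644 CPM (7559.5 to 7730.2) and 101 CPM (93.9 to 109), a log2 ratio of 6.24 (6.13 to 6.35). Rod-like cells had 94.7 CPM (87.4 to 102) and 92.7 CPM (87.8 to 97.8), so Pmel of RPE-like cells was 1.88 times the rod-like level in the GFP-labelled library and 1.09 times in the sponge-labelled library, where the intervals overlap. Other classes lay above RPE-like cells in both libraries: fibroblast-like at 227 and 118 CPM, ocular surface epithelium-like at 233 and 111 CPM, endothelial-like at 231 and 208 CPM, and microglia and macrophage-like at 220 and 163 CPM. Cone-like, bipolar-like and Muller glia-like cells lay below RPE-like cells in both. Mlana stood at 1208 and 139 CPM in the GFP-labelled library and at 3041 and 160.1 CPM in the sponge-labelled library.

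The transporter gene Oca2, the receptor gene Gpr143 and the factor gene Mitf were less far apart. RPE-like Oca2 was 166 CPM (157 to 176) in the GFP-labelled and 167 CPM (157 to 177) in the sponge-labelled library, which is 20.9% and 13.8% of its melanocyte-like levels of 795 and 1213 CPM, and 21.6 and 30.3 times its rod-like level. Gpr143 stood at 97.0 CPM (89.5 to 105) in melanocyte-like and 41.8 CPM (37.2 to 46.8) in RPE-like cells of the GFP-labelled library, and at 176 CPM (164 to 189.7) and 64.7 CPM (58.9 to 70.9) in the sponge-labelled library. Its RPE-like level was 43.1% and 36.7% of the melanocyte-like one, and 15.4 and 43.2 times the rod-like level. Mitf had the narrowest gap in the GFP-labelled library, with 518 CPM (500.3 to 536) in melanocyte-like and 344 CPM (331 to 358) in RPE-like cells, a log2 ratio of 0.59 (0.52 to 0.67). In the sponge-labelled library Mitf stood at 941 CPM (912 to 972) and 275 CPM (263 to 287), a log2 ratio of 1.78 (1.70 to 1.86), where Gpr143 at 1.45 (1.27 to 1.62) was narrower.

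The transporter Slc45a2 stood at 189 and 13.2 CPM in melanocyte-like and RPE-like cells of the GFP-labelled library, and at 367 and 20.6 CPM in the sponge-labelled library. Slc24a5 stood at 554 and 109 CPM, and at 1159 and 153 CPM. Its RPE-like level was only 1.58 and 2.81 times its rod-like level of 69.2 and 54.3 CPM. RPE-like cells held Mitf, Oca2 and Gpr143 at 5.89 times the rod-like level or more, in both libraries, whereas the other 7 genes lay between 1.09 and 4.74 times it. Fibroblast-like cells of the GFP-labelled library were higher than RPE-like cells for Tyr, at 36.9 against 29.8 CPM, for Tyrp1, at 174 against 164 CPM, and for Pmel, at 227 against 178 CPM. In the sponge-labelled library they stood at 10.1, 61.1 and 118 CPM, above RPE-like cells for Pmel alone of these 3. In microglia and macrophage-like cells labelled sponge, Oca2 reached 7.11 times and Mitf, before thinning, 6.22 times the rod-like level. A fold of 5.89 was thus not particular to RPE-like cells. The RPE-like folds of Oca2 (21.6 and 30.3) and Gpr143 (15.4 and 43.2) were larger. Outside melanocyte-like and RPE-like cells, no named class passed 7.11 times for Oca2 or 3.20 times for Gpr143. The unnamed cluster 3 reached 10.3 and 12.1 times for Oca2 and 4.00 and 4.43 times for Gpr143. Cluster 6 reached 22.2 and 34.8 times and 3.58 and 14.3 times.

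**Figure D2:**
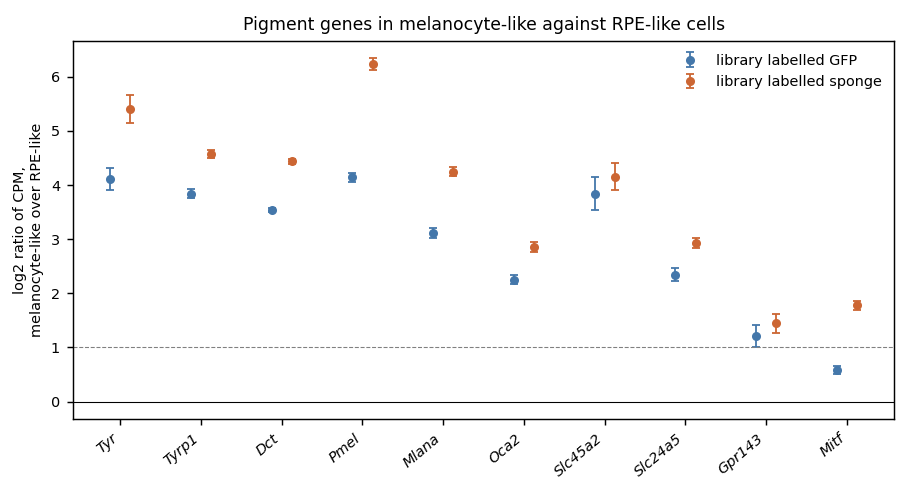
Log2 ratio of each gene in melanocyte-like over RPE-like cells, blue in the GFP-labelled library and orange in the sponge-labelled library, with 95% intervals for counting error; the dashed line marks a 2-fold difference. Pmel has the highest ratio (4.14 and 6.24), and Mitf (0.59 and 1.78) and Gpr143 (1.21 and 1.45) the lowest.

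Shares of cells with a UMI were compared at an even depth of 1000 UMIs per cell. Thinning left out 18 and 4 melanocyte-like, 15 and 3 RPE-like and 124 and 117 rod-like cells. Tyr was seen in 37.2% (exact interval 35.0 to 39.5) and 43.0% (38.2 to 48.0) of melanocyte-like cells, against 2.40% (1.53 to 3.58) and 1.50% (0.605 to 3.06) of RPE-like and 0.817% (0.552 to 1.16) and 0.597% (0.411 to 0.837) of rod-like cells. Pmel was seen in 85.3% and 87.8% of melanocyte-like cells, but in 9.70% and 9.42% of RPE-like and in 9.23% and 9.31% of rod-like cells, so its share in RPE-like cells was not detectable above that of free RNA. Mitf was seen in 37.1% and 45.0% of melanocyte-like cells and in 25.2% (22.5 to 28.1) and 15.4% (12.3 to 19.0) of RPE-like cells, against 4.44% and 4.43% of rod-like cells. Without thinning Tyr was seen in 68.0% and 79.4% of melanocyte-like cells, and Pmel in 27.0% and 33.8% and Mitf in 70.5% and 46.6% of RPE-like cells, at median depths of 3215 and 9489 UMIs in melanocyte-like and 6388.5 and 4107 in RPE-like cells. A thinned melanocyte-like cell held UMIs of a median of 5 and 6 of the 10 genes, an RPE-like cell of 1 and 1, and a rod-like cell of 0 and 0.

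In the Gpnmb and Grem1 cluster the 10 genes stood apart in their make-up. Mlana reached 845 CPM (824 to 866) and 1712 CPM (1692 to 1733), or 69.9% and 56.3% of its melanocyte-like level. Pmel reached 40.9% and 33.2%, Dct 29.9% and 37.3%, Tyrp1 26.9% and 22.9% and Tyr 25.8% and 27.1%. Slc45a2 and Gpr143 were low there, at 17.1 and 18.4 CPM and at 9.73 and 21.3 CPM. Over RPE-like cells, 5 of the 10 genes (Tyr, Tyrp1, Dct, Pmel and Mlana) were at least 2-fold higher in each library, where 11% and 21.2% of measured genes were, and Gpr143 was at least 2-fold lower in each, as were 7.15% and 9.48% of measured genes. The cluster was picked by its summed level of these same genes. The count of higher genes was partly set by that choice and is a description only. Oca2 differed little between the cluster and RPE-like cells, with log2 ratios of 0.04 (-0.08 to 0.15) and 0.20 (0.10 to 0.30). Melanocyte-like cells were at least 2-fold above the cluster for 9 of the 10 genes in each library, all but Mlana, where 5.43% and 10% of measured genes were, and for 0 of the 10 at least 2-fold below it, where 8.28% and 13.1% were.

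At the finer clustering (resolution 2, 45 clusters) the Gpnmb and Grem1 cluster divided mainly into subcluster 8, with 1128 and 728 cells and a ciliary and iris epithelium-like marker profile, and subcluster 29, with 416 and 392 cells and high Acta2 and Myh11, genes of contractile cells. In subcluster 8 Zic1 stood at 136 and 212 CPM and Acta2 at 98.6 and 175 CPM. In subcluster 29 they stood at 3.87 and 6.36 CPM and at 1518 and 3944 CPM. Pmel differed most between them, at 638 CPM (617 to 660.0) and 1323 CPM (1302 to 1345) in subcluster 8 and 3211 CPM (3129 to 3295) and 5334 CPM (5269 to 5399) in subcluster 29. Mitf stood at 232 and 307 CPM in subcluster 8 and at 218 and 254 CPM in subcluster 29. Of the 10 melanocyte markers 1 was raised in the whole cluster, Trpm1, an ion channel gene, at 1074 and 1331 CPM against 860.4 and 1008 CPM in melanocyte-like cells. The neural crest factor genes Sox10 and Pax3 stood at 7.12 and 1.06 CPM and at 5.48 and 0.0624 CPM there.

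Other cells carried low levels of the 10 genes. Over the other 25 clusters with at least 50 cells labelled GFP, the summed level ran from 444 to 2567 CPM with a median of 616 CPM, and over 23 clusters labelled sponge from 199 to 2279.7 CPM with a median of 408. At the summed level, 3 clusters lay above RPE-like cells: melanocyte-like cells, the Gpnmb and Grem1 cluster and an unnamed cluster (cluster 3) of 3653 and 233 cells. Cluster 3 scored highest for fibroblasts, at 1.32, but nearly as high for pericytes and smooth muscle, at 1.03. Its leading genes, among them Lingo2, Nrg3 and Galntl6, held no fibroblast marker, so its cells are taken as mixed. Cluster 3 had Dct at 1413 and 941 CPM and Pmel at 363 and 496 CPM. Slc24a5 did not keep 1 ratio with Dct outside the pigmented clusters. In the GFP-labelled library cone-like cells had it at 99.1 CPM (83.6 to 117) with Dct at 315 CPM, and fibroblast-like cells at 76.3 CPM (70.8 to 82.1) with Dct at 930.0 CPM. Its opposite-strand neighbour Myef2 was counted at 91.7 and 80.9 CPM in rod-like cells.

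Mitf was also high in microglia and macrophage-like cells, at 169 CPM (157 to 182) in the GFP-labelled library and 290.2 CPM (274 to 307) in the sponge-labelled library, 3.87 and 6.22 times its rod-like level. Their Tyr stood at 32.3 and 15.2 CPM, Dct at 797 and 345 CPM and Gpr143 at 4.79 and 2.74 CPM. Thinned to 1000 UMIs, Mitf was seen in 13.1% and 10.5% of these cells, and without thinning in 31.7% and 34.9%. Its level at 1000 UMIs, where each cell counts alike, was 161.5 and 161.0 CPM, without the gap of the summed level. No interval was computed for the thinned level, and the reason for the gap was not tested. Rod-like cells had 45.7 and 47.4 CPM at that depth.

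**Figure D3:**
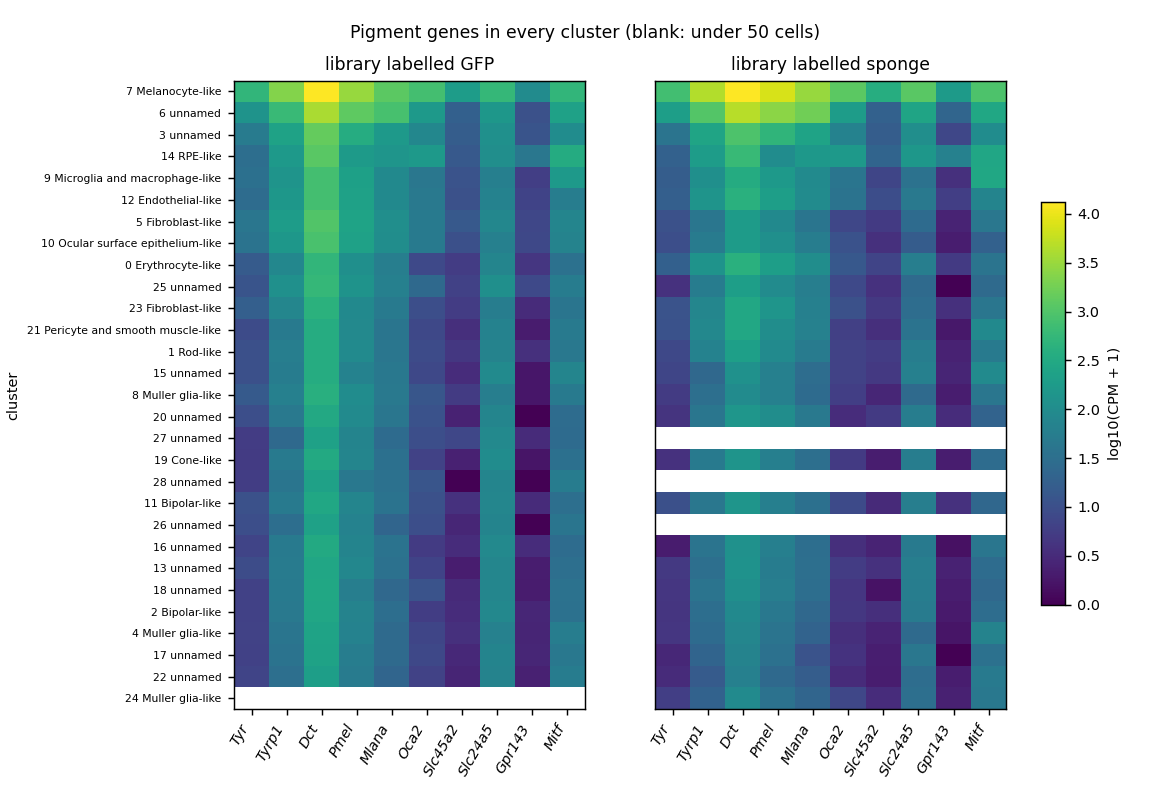
Levels of the 10 genes, as log10(CPM + 1) on the colour scale, in every cluster with at least 50 cells (rows, ordered by their mean summed level) of the GFP-labelled library on the left and the sponge-labelled library on the right; a blank row has under 50 cells. The melanocyte-like row is brightest, cluster 6 follows, and Mitf stands out in the row of microglia and macrophage-like cells (169 and 290.2 CPM).

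The second question was whether the 10 genes differed between the libraries. In melanocyte-like cells 9 of the 10 were higher in the sponge-labelled library, with a median log2 ratio of 0.91 against -0.06 over 14332 measured genes. At least 2-fold higher were 3 of the 10, Pmel, Mlana and Slc24a5, where 4.02% of measured genes were, and 0 were at least 2-fold lower, where 8.47% were. Pmel had a log2 ratio of 1.28 (1.25 to 1.30), Mlana of 1.33 (1.29 to 1.37) and Slc24a5 of 1.06. Tyrp1 and Slc45a2 both had 0.96, Gpr143 and Mitf both 0.86, Oca2 0.61 and Tyr 0.55 (0.48 to 0.62).

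Dct was the exception, with a log2 ratio of -0.04 (-0.06 to -0.03) that changed sign in 5 of 14 alternative settings. Of the genes with a miR-181 site, Tyr at 0.55, Slc45a2 at 0.96 and Mitf at 0.86 lay within the range of the other 7, -0.04 to 1.33. Slc45a2 lay outside that range in the other classes, just below it in the Gpnmb and Grem1 cluster, at 0.10 against a lowest of 0.16 (Oca2), and just above it in RPE-like cells, at 0.64 against a highest of 0.63 (Gpr143), with wide intervals. The cells of the 2 libraries differed in depth, at medians of 3215 and 9489 UMIs, in mitochondrial share, at medians of 9.49% and 6.38% of UMIs, and in free RNA, with the 9 rod markers at a summed 6232 and 2848 CPM. The part of these differences in the ratios was not tested. With every cell thinned to 1000 UMIs the median ratio was 0.74, the lowest of the 14 alternatives, and among cells with at least 3000 UMIs, a setting added after seeing the data, it was 0.90.

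Melanocyte-like cells were 4.56% (4.36 to 4.78) and 1.78% (1.61 to 1.96) of kept cells. At resolution 2 they divided into subclusters 18 (956 and 315 cells), 23 (770 and 63) and 40 (46 and 34), the last unnamed and with little Dct, at 527 and 83.7 CPM. Pmel and Mitf were higher in the sponge-labelled library in both main subclusters. In subcluster 18 Pmel reached 3909.7 CPM (3836 to 3984) and 8993 CPM (8881 to 9106), and Mitf at 647 and 1153 CPM. In subcluster 23 Pmel stood at 2643 and 5669 CPM and Mitf at 432 CPM (410.5 to 454) and 592 CPM (547 to 639). Dct was lower in the sponge-labelled library in both, at 17110.2 CPM (16956 to 17266) and 15754 CPM (15606 to 15904), and at 10862 CPM (10754 to 10971) and 8604 CPM (8432 to 8779).

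RPE-like cells gave a mixed picture. There 6 of the 10 genes were higher and 4 lower in the sponge-labelled library, with a median log2 ratio of 0.10 against -0.19 over 14633 measured genes. None of the 10 passed 2-fold: 0 were at least 2-fold higher, where 2.33% of measured genes were, and 0 at least 2-fold lower, where 15.2% were. Dct at -0.95, Pmel at -0.82 (-0.95 to -0.68), Tyr at -0.74 (-1.07 to -0.42) and Mitf at -0.32 (-0.41 to -0.24) were lower. Slc45a2 at 0.64 (0.26 to 1.03), Gpr143 at 0.63 (0.42 to 0.84), Slc24a5 at 0.48, Tyrp1 at 0.23 and Mlana at 0.20 were higher, and Oca2 stood at 0.00 (-0.11 to 0.12). With the median gene set to 0, the median of the 10 was 0.29. In rod-like cells Dct was lower too, with a log2 ratio of -0.77 (-0.85 to -0.70), and 0 of the 10 genes passed 2-fold either way there, where 1.69% of measured genes were at least 2-fold higher and 4.03% lower.

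The RPE-like cells of the libraries lay in different subclusters, and the values are given for each. Subcluster 21 held 81.7% of those labelled GFP and 33.8% of those labelled sponge, subcluster 32, mixed with erythrocyte markers and shallow, 17.0% and 53.0%, and subcluster 44, with the most eGFP (1773 CPM in the sponge-labelled library), 1.03% and 13.0%. In subcluster 21 Mitf stood at 349 CPM (335 to 363) and 261 CPM (246 to 276), Dct at 1169.5 and 793 CPM, and Gpr143 at 42.7 CPM (37.9 to 47.9) and 68.4 CPM (61.1 to 76.5). In the 61 cells of subcluster 44 labelled sponge, at a median of 26433 UMIs, Dct stood at 160.2 CPM (143 to 179) and Pmel at 20.9 CPM, both below the rod-like levels of that library. The same cells had Mitf at 364 CPM (338 to 392), Oca2 at 139 CPM and Gpr143 at 62.3 CPM (51.6 to 74.5), all above the rod-like levels.

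In the Gpnmb and Grem1 cluster all 10 genes were higher in the sponge-labelled library, with a median log2 ratio of 0.67 against -0.10 over 16153 measured genes, although the interval of Slc45a2 at 0.10 (-0.20 to 0.42) includes 0 and its sign changed in 2 of 13 alternative settings. At least 2-fold higher were 2 of the 10, Mlana at 1.02 (0.98 to 1.06) and Gpr143 at 1.12 (0.76 to 1.52), where 2.37% of measured genes were, and 0 were at least 2-fold lower, where 8.54% were. Pmel had 0.98 (0.95 to 1.01) and Dct 0.27 (0.25 to 0.29). The median depth was 4068 and 12646 UMIs and the summed rod markers stood at 4818 and 2158 CPM, and their part in the ratios was not tested. Markers of contractile cells were higher too, with Acta2 at 460.2 and 1323 CPM, Tagln at 370.1 and 1014 CPM and Myh11 at 232 and 499 CPM, and the Pmel-rich subcluster 29 made up 26.5% and 34.9% of the cluster. Their part was not tested either.

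**Figure D4:**
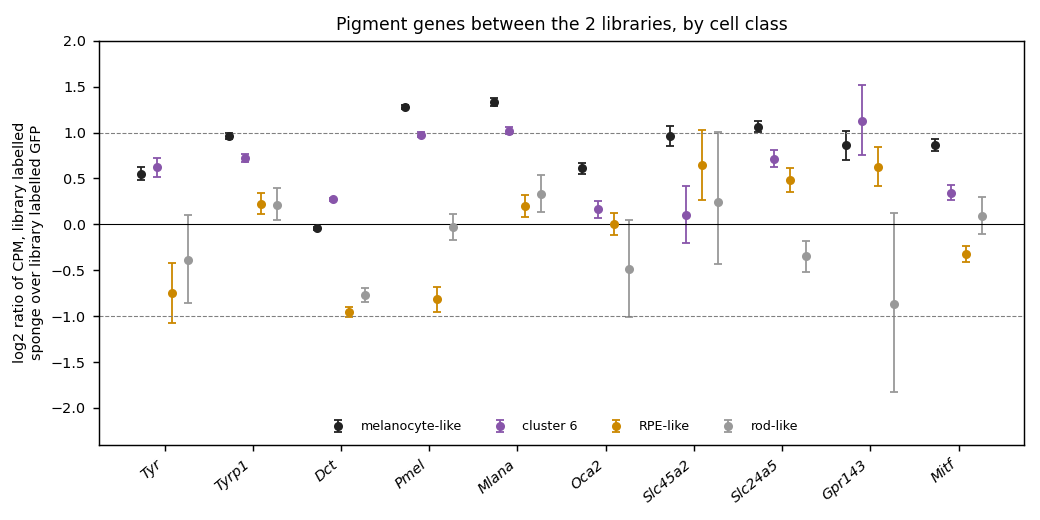
Log2 ratio of each gene, sponge-labelled library over GFP-labelled library, in melanocyte-like cells (black), the Gpnmb and Grem1 cluster (cluster 6, purple), RPE-like cells (orange) and rod-like cells (grey), with 95% intervals for counting error; dashed lines mark a 2-fold difference. Tyr, Pmel and Mitf lie above 0 in melanocyte-like and below 0 in RPE-like cells, and Dct has the lowest ratio of the 10 in melanocyte-like (-0.04) and RPE-like (-0.95) cells.

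Dct took a smaller share of the UMIs of the 10 genes in the sponge-labelled library in every cluster compared. Its share of them was 58.9% (58.6 to 59.1) and 39.6% (39.3 to 39.9) in melanocyte-like cells, 53.6% (53.2 to 54.0) and 43.6% (43.4 to 43.8) in the Gpnmb and Grem1 cluster, and 49.4% (48.6 to 50.1) and 34.2% (33.4 to 35.1) in RPE-like cells. Over the 25 clusters with at least 50 cells in each library it ran from 46.1% to 58.9% (median 52.4%) in the GFP-labelled library and from 28.7% to 43.7% (median 36.7%) in the sponge-labelled library. It was lower in 25 of 25, with intervals apart in 24. The clusters of a library share its free RNA, so they are not independent.

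**Figure D5:**
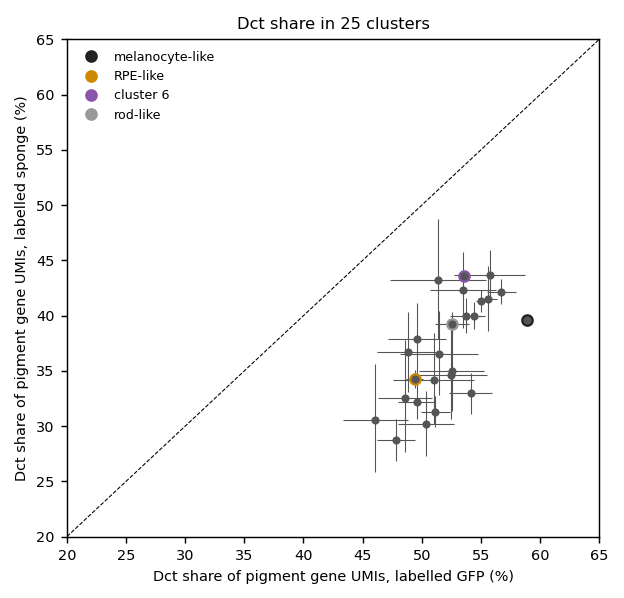
Dct share of the UMIs of the 10 genes (percent) in the sponge-labelled library against the GFP-labelled library, 1 point per cluster with at least 50 cells in each, with exact 95% intervals. All 25 points lie below the dashed line of equal shares, among them melanocyte-like cells at 58.9% and 39.6%.

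Genes of melanosome biogenesis and transport were measured beside the 10. Of 31 measured in melanocyte-like cells 21 were higher and 10 lower in the sponge-labelled library, with a median log2 ratio of 0.36 against -0.06 over all measured genes. Cd63, a tetraspanin that takes part in sorting PMEL, stood at 1106 and 2222 CPM, Gpnmb, a melanosomal glycoprotein related to PMEL, at 1034 and 1824 CPM, and Rab38, a small GTPase that brings enzymes to melanosomes, at 273 and 453 CPM. Slc7a11, a cystine transporter, stood at 25.9 and 14.8 CPM. In RPE-like cells 18 of 31 were higher and 13 lower, with a median of 0.10 against -0.19, and Cd63 stood at 666 and 1087 CPM while Myo5a, a motor that carries melanosomes, stood at 107 and 60.3 CPM.

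Between cell classes the median of these genes lay near the background. In melanocyte-like over RPE-like cells 20 of 31 were higher and 11 lower in the GFP-labelled library and 17 of 30 higher and 13 lower in the sponge-labelled library, with median log2 ratios of 0.28 and 0.33 against 0.20 and 0.29 over all measured genes. At least 2-fold higher were 8 of 31 and 10 of 30, where 9.55% and 20.7% of measured genes were. At least 2-fold lower were 1 of 31 and 2 of 30, where 7.91% and 10.6% were. Single genes differed widely. Mlph, the adaptor that links melanosomes to myosin Va, stood at 289 and 412 CPM in melanocyte-like and at 15.3 and 11.3 CPM in RPE-like cells. Rab38 stood at 273 and 453 CPM and at 18.6 and 15.3 CPM. Myrip, the adaptor that links them to myosin VIIa, went the other way, at 32.4 and 25.5 CPM in melanocyte-like and 174 and 187 CPM in RPE-like cells.

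Of the upstream signals and factors, 9 of 17 measured were higher and 8 lower in melanocyte-like cells of the sponge-labelled library. The median log2 ratio was 0.23 against -0.06 over all measured genes. At least 2-fold lower were 4 of the 17, Edn3, Pax6, Lef1 and Otx2, where 8.47% of measured genes were. None was at least 2-fold higher, where 4.02% were. In RPE-like cells 3 of 16 were higher and 13 lower, with a median of -0.36 against -0.19 over all measured genes. At least 2-fold lower were 4 of the 16, where 15.2% of measured genes were, and 0 at least 2-fold higher, where 2.33% were. Kitl, the ligand of the melanocyte receptor KIT, stood at 26.0 and 6.64 CPM in RPE-like cells, a log2 ratio of -1.96. Edn3, the ligand of EDNRB, had a log2 ratio of -2.77 (-3.88 to -1.91) there. Lower values were not particular to RPE-like cells. Edn3 had -2.94 (-6.35 to -1.26) in melanocyte-like cells, and Kitl had -0.94 in rod-like cells and -0.89 in the Gpnmb and Grem1 cluster. Kitl was higher in melanocyte-like cells, at 0.68, and Edn3 had -0.32 (-0.85 to 0.23) in the Gpnmb and Grem1 cluster. Otx2, a factor of the RPE, stood at 410 and 434 CPM in RPE-like and at 114 and 52.2 CPM in melanocyte-like cells, and Sox9 at 427 and 330 CPM and at 126 and 85.5 CPM. Pax6 stood at 249 and 280.3 CPM in the Gpnmb and Grem1 cluster, log2 ratios of 2.31 and 3.76 over RPE-like cells.

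Across 54 pseudobulks, the summed counts of a cluster in a library, the level of each of the 10 genes followed the mean of the other 9 with a Pearson r of 0.78 (Slc24a5) to 0.97 (Tyrp1), as a description, since the points share libraries and free RNA. Of 8686 other genes, the 10 most like the mean of the 10 were Mlph (r = 0.94), Trim63 (0.92), Gpnmb (0.89), Bace2 (0.88), Tspan10 (0.85), Ptgds (0.85), Sytl2 (0.85), Pla2g2e (0.84), C2 (0.84) and Sox10 (0.84). Trim63 stood at 66.4 and 124 CPM in melanocyte-like and 4.54 and 4.52 CPM in RPE-like cells. Ptgds was higher in RPE-like cells, at 32337 and 49164 CPM, than in melanocyte-like cells, at 9952 and 20204 CPM.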

How the data were processed

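The deposited matrices hold UMI counts per gene and barcode, made by the authors with Cell Ranger 7.0.0 on mm10, per the submitters' processing notes; the sources used here do not state how intronic reads and strand were handled. The filter on barcodes asked for 300 genes, 500 UMIs and a mitochondrial share of 25% or less. Scrublet (scanpy 1.11.5) marked 0 cells at thresholds of 0.55 and 0.65, so it did not work here and no doublets were removed. Cells were clustered on counts scaled to 10000, 2000 variable genes, 30 components and 15 neighbours (leidenalg 0.10.2, resolution 1), without the 10 genes, the melanosome list and eGFP. A cluster was named "-like" when 3 or more of its markers stood 2-fold above the median of all clusters, the runner-up class scored under 0.5 of it and its 10 top genes did not point elsewhere; 13 of 29 stayed unnamed. The fixed lists gave the markers, the naming rule was set on these data, and names may differ from those of the study.

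Summed counts of each class in a library were turned into CPM with exact Poisson intervals, shares of cells with exact Clopper-Pearson intervals, and log2 ratios with 0.5 added to both counts and the exact binomial interval of the pair. A gene needed 20 counts over both sums to be measured. With 1 library per group no test was run. The ratio and its interval were run on simulated Poisson counts with known changes. That checks the arithmetic alone, since such counts hold no variation between cells or libraries and no free RNA. All 10 genes are named; list genes are named from the 6 highest and 6 lowest by the interval bound nearest 0 (4 between classes). Genes most alike needed 100 counts and 50 CPM, on log2(CPM + 1). The members and lists were chosen with earlier results of these data known. Levels are compared for 1 gene across cells, not between genes, since a 3′ tag count per gene depends on its transcript ends.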

Additional observations from a re-analysis of the deposited data

Results flagged for a closer look

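In 3 genes the libraries differed in opposite directions in the pigmented classes, each with a log2 ratio, sponge-labelled library over GFP-labelled library, above 0 in melanocyte-like and below 0 in RPE-like cells and both counting intervals away from 0. For Pmel the ratios were 1.28 and -0.82, a difference of 2.09. With every cell thinned to 1000 UMIs the RPE-like ratio of Pmel was -0.04, at 150.2 and 145.6 CPM, and without thinning its RPE-like level was 1.09 times the rod-like one in the sponge-labelled library. For Tyr the ratios were 0.55 and -0.74, a difference of 1.29. RPE-like Tyr stood at 29.8 and 17.8 CPM, against 36.9 and 10.1 CPM in fibroblast-like and 32.3 and 15.2 CPM in microglia and macrophage-like cells. Rod-like cells also had less in the sponge-labelled library, at 9.06 and 6.94 CPM, whereas pericyte and smooth muscle-like cells had 7.86 and 10.2 CPM. The part of free RNA in the Tyr ratio was not tested. For Mitf the ratios were 0.86 and -0.32, a difference of 1.19. With 1 library per group these differences were not tested. The RPE-like cells lay mostly in different subclusters in the 2 libraries, with 81.7% and 33.8% of them in subcluster 21, and within it the ratios were -0.50 for Pmel, -0.36 for Tyr and -0.42 for Mitf. Tyr stood there at 30.4 CPM (26.4 to 34.8) and 23.6 CPM (19.4 to 28.5), with overlapping intervals.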

How the results depend on the processing

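No paired analysis was possible because each group holds 1 library and its cells are not tied to mice. The median log2 ratio of the 10 genes kept its sign under all 14 alternatives run (11 planned and 3 added after seeing the data) in melanocyte-like cells between libraries (0.74 to 1.11) and between melanocyte-like and RPE-like cells (2.94 to 3.82 in the GFP-labelled library, 3.91 to 4.63 in the sponge-labelled library), and under the 13 run in the Gpnmb and Grem1 cluster (0.64 to 0.80); assignment by marker score could not be run there. In RPE-like cells between libraries it ran from -0.13 to 0.29, above 0 in 12 of 14. Beyond the main counting interval, the melanocyte-like ratio of 0.91 was 0.97 with median-of-ratios scaling, 0.98 without a filter on cells, 0.97 at resolution 2, 1.02 clustered with the 10 genes, 1.11 by marker score, 0.84 with cells weighted equally, 0.74 thinned and 0.86 without the highest doublet scores. The RPE-like ratio of 0.10 was 0.29 with median-of-ratios scaling, -0.13 with cells weighted equally and 0.27 in the leading subclusters. The melanocyte-like over RPE-like ratio of 3.33 was 3.13 with median-of-ratios scaling, 2.94 by marker score, 3.39 thinned, 3.40 without the highest doublet scores, 3.82 with the rod-like level subtracted and 3.66 in the leading subclusters. That of 4.20 was 3.91 with median-of-ratios scaling, 4.46 with cells weighted equally, 4.42 thinned and 4.63 with the rod-like level subtracted. The ratio of 0.67 in the Gpnmb and Grem1 cluster was 0.80 thinned. The causes were not tested. Of single genes, Pmel in RPE-like cells between libraries ran from -3.29, with the rod-like level subtracted, to -0.04, Dct in melanocyte-like cells from -0.12 to 0.16 and Oca2 in RPE-like cells from -0.49 to 0.20. Replicates were not available, the RPE-like cells labelled sponge number 470, and no interval covers more than counting error.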
